A study of Mus musculus with 7 samples.

Results

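A set of 9 genes of the type I interferon response was followed in dystrophic soleus muscle: Ifit1, Ifit2, Ifit3, Isg15, Stat2, Irf7, Irf9, Oasl2 and Rsad2. They were chosen by symbol, and all 9 were found among the 29869 gene symbols of the deposited count table. RNA sequencing was done on whole soleus, a slow-twitch hindlimb muscle, of mice 60 days old. All 7 mice carried mdx, the mutation that removes dystrophin and models Duchenne muscular dystrophy. The 4 libraries of the comparison group are labelled mdx, and the other 3 are labelled mdx/Runx1f/f, which adds floxed alleles of the transcription factor gene Runx1. The labels name no Cre driver, and the comparison asks which transcripts differ in dystrophic muscle when the Runx1 alleles are floxed.

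The labels of the series do not agree on which group is which. By the titles there are 4 mdx and 3 mdx/Runx1f/f muscles, and by the series' design text 3 and 4. Runx1 itself stood at 274, 273, 235 and 201 normalised read counts in the mdx libraries and at 919, 925 and 596 in those labelled mdx/Runx1f/f. It was thus higher under the label that names the floxed alleles. Counts over a whole gene in whole muscle do not show whether floxed alleles were lost, and this was not tested. The description field also gives another animal number than the title for 6 of the 7 libraries. Groups are called by their titles throughout, and if the titles were exchanged between groups every direction given here would be the opposite. The libraries held 16218306 to 20847902 counts. The titles number 7 different animals, so each library stands for 1 mouse. The labelled tissue was checked on 8 muscle fibre markers, and all were present in every library. Replicate 1 of mdx/Runx1f/f stood apart in the slow-fibre markers: Myh7, the slow myosin heavy chain, was at 40503 normalised counts there and at 128319 to 275132 in the other 6 libraries. Myh2, another myosin heavy chain, was also lowest there, at 65540 against 71406 to 202704 in the others. So was the sum of the 8 fibre markers, at 932029. Acta1, at 566959, was within the range of the others, and Ckm, at 189254, was the highest of the 7.

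Type I interferons are secreted proteins that bind the receptor made of Ifnar1 and Ifnar2. The receptor's kinases, Jak1 and Tyk2, phosphorylate STAT proteins, and Stat2 joins Irf9 in the complex ISGF3. This complex binds the interferon-stimulated response element in the promoters of antiviral genes, and several of its own components are among its targets. In dystrophic muscle, infiltrating immune cells and muscle fibres can both respond to interferon.

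The response element was looked for in the members' promoters. Most of the members varied together between libraries, and whether the element goes with that pattern was not tested. All 9 members matched a promoter entry of RefSeq (build GRCm38.p6, while the counts were made on mm9). The core of the element, GAAA followed by any 2 bases and GAAA again, was searched on both strands in the 250 bases before each start. It was present for 5 of the 9 members and for 3.46% of the 27025 genes with an entry. The members are known response genes, so this is a description of the set. The 5 stretches are shown 5′ to 3′ on the strand of the gene, with the matched letters in capitals, because they let the spacing of the element be compared between members.

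Ifit1 (chr19:34640755-34640843, + strand): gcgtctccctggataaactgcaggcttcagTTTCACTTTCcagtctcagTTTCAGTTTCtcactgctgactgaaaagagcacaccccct
Ifit3 (chr19:34583343-34583446, + strand): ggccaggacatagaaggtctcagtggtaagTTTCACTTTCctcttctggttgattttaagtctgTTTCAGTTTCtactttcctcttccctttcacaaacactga
Isg15 (chr4:156200845-156200926, - strand): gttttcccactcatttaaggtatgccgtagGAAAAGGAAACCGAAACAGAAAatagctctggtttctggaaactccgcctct
Stat2 (chr10:128270248-128270315, + strand): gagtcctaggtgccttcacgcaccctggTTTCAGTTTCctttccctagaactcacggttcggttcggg
Rsad2 (chr12:26456533-26456602, - strand): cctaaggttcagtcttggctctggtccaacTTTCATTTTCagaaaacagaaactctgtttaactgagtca

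Ifit1 and Ifit3 each held 2 separate copies, both in the reverse orientation. The first began 104 bases before the start of Ifit1 and 156 bases before that of Ifit3. Isg15 held 3 overlapping matches in the forward orientation, in a run that ended 57 bases before the start. Stat2 and Rsad2 held 1 match each, beginning 222 and 120 bases before the start. The windows of Ifit2, Irf7, Irf9 and Oasl2 did not hold the core. TGTGGT, the core bound by Runx proteins, was in the windows of Stat2 and Oasl2, against 15.9% of all genes with an entry. TTCNNNGAA, the core of the gamma-activated site, was in the window of Ifit2, against 8.13% of those genes.

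None of the 9 members passed the test between the groups. In edgeR's quasi-likelihood fit of 14033 genes, with p-values adjusted over all of them by Benjamini and Hochberg's method, 0 members had an adjusted p below 0.05. Of all tested genes 6.95% did, 5.1% being higher and 1.85% lower in mdx/Runx1f/f. DESeq2 and limma-voom called 0 members as well, against 16.2% and 7.3% of genes. At an unadjusted p below 0.05 there was 1 member by edgeR (29.5% of all genes), 1 by DESeq2 and 2 by limma-voom. The share of all genes at that p was counted for edgeR only. Log2 fold changes of mdx/Runx1f/f against mdx were positive for 8 of the 9, against 49.8% of all tested genes. Their median was 0.45, against -0.0016 over all genes. The ranges of both groups overlapped for 8 members, and groups did not overlap for 27.4% of all tested genes.

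**Figure D1:**
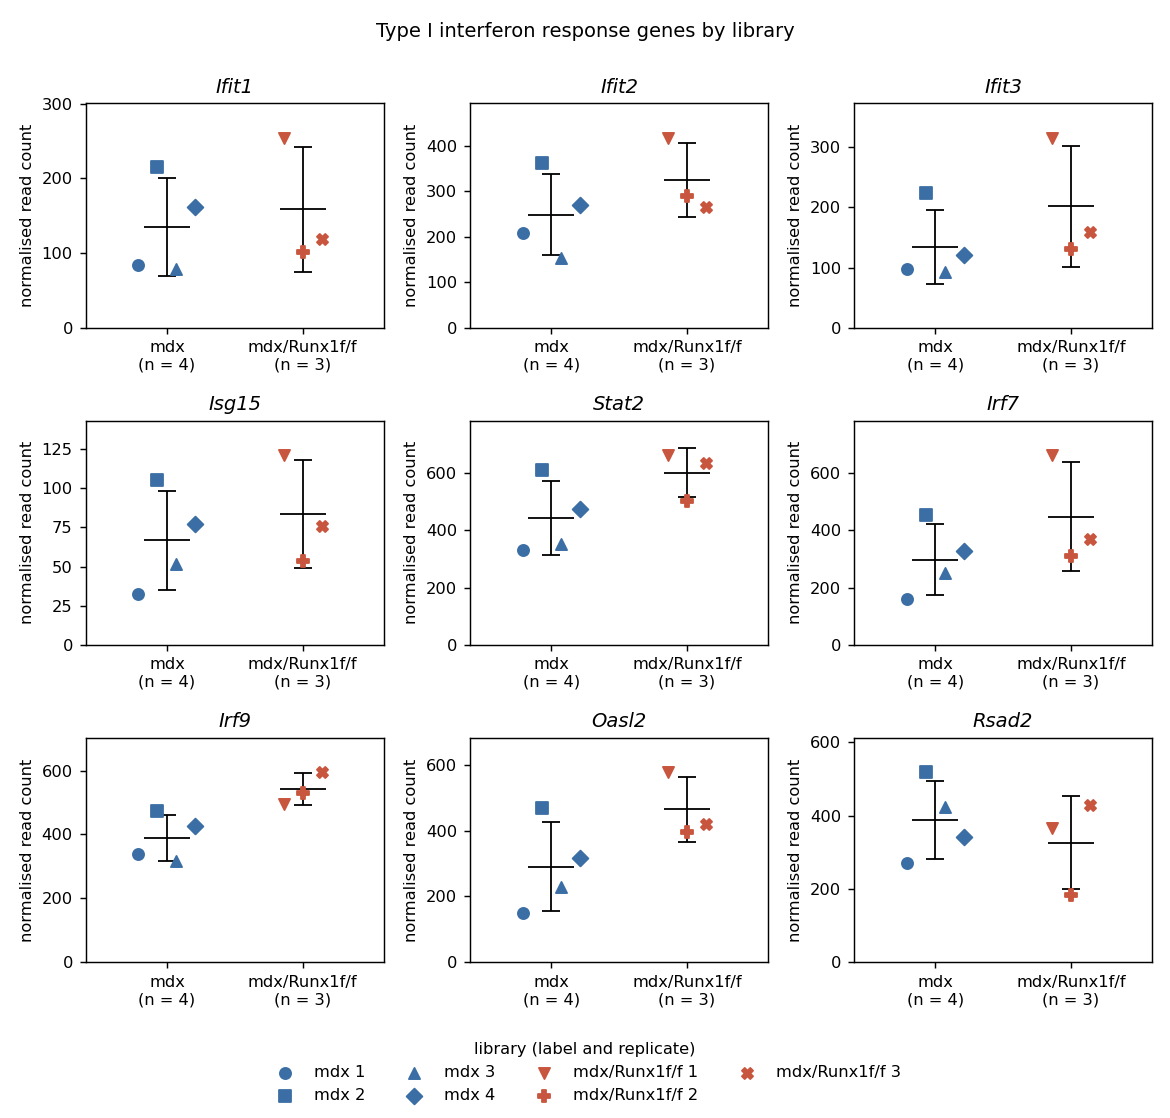
Normalised read count of each member (y axis, from 0) in the 4 libraries labelled mdx and the 3 labelled mdx/Runx1f/f, with 1 symbol per library and the mean ± SD in black. The square of mdx replicate 2 is the highest of its group in all 9 panels, and Irf9 is the member whose groups do not overlap.

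Stat2, Irf9 and Irf7 encode the transcription factors among the members. Irf9, the subunit of ISGF3 that recognises DNA, stood at 337, 472, 318 and 425 normalised counts in the libraries labelled mdx, replicates 1 to 4. It stood at 497, 530 and 595 in those labelled mdx/Runx1f/f. Every library of the latter group was above every library of the former. The fitted log2 fold change was 0.48 (SE 0.15, adjusted p by edgeR = 0.0886), with a 95% interval from 0.13 to 0.84. In the authors' deposited table Irf9 has a log2 fold change of 0.45 and an adjusted p of 0.0430, the only member below 0.05 there. That table calls 19% of its genes in either direction, so Irf9 is close to the threshold by either analysis and passes in one.

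Stat2, the partner of Irf9 in ISGF3, stood at 330, 611, 351 and 476 in the mdx libraries and at 664, 503 and 637 in the mdx/Runx1f/f libraries. Replicate 2 of mdx was above mdx/Runx1f/f replicate 2, so the groups overlapped. The fitted log2 fold change was 0.45 (SE 0.22, adjusted p by edgeR = 0.218). Irf7, which amplifies the response by driving interferon genes themselves, stood at 161, 453, 251 and 328 against 665, 312 and 370. Its highest library was 2.82-fold above its lowest among those labelled mdx and 2.13-fold among the others. The log2 fold change of Irf7 was 0.60 (SE 0.37, adjusted p by edgeR = 0.316), and without mdx/Runx1f/f replicate 1 it was 0.19.

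Ifit1, Ifit2 and Ifit3 encode tetratricopeptide proteins that bind viral RNA or hold back translation, and they lie together on chromosome 19. Ifit1 stood at 84.5, 215, 78.4 and 162 in the mdx libraries and at 255, 102 and 119 in the mdx/Runx1f/f libraries. Its counts varied 2.74-fold within the former group and 2.51-fold within the latter. Group means were 135 ± 65.6 (SD, n = 4) and 159 ± 83.7 (SD, n = 3), a difference smaller than either SD. The fitted log2 fold change was 0.24 (SE 0.45, adjusted p by edgeR = 0.756), and without mdx/Runx1f/f replicate 1 it was -0.29.

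Ifit2 stood at 207, 361, 153 and 270.5 against 418, 290.5 and 266, with a log2 fold change of 0.40 (SE 0.29, adjusted p by edgeR = 0.393). The 2 lower libraries labelled mdx/Runx1f/f lay within the range of the mdx libraries, and without replicate 1 of that group the value was 0.16. Ifit3 stood at 97.2, 225, 92.7 and 120 against 316, 130 and 158, with a log2 fold change of 0.60 (SE 0.40, adjusted p by edgeR = 0.347). Without mdx/Runx1f/f replicate 1 that of Ifit3 was 0.11. Of the stretches of 50 bases in the transcripts of Ifit3, 51.2% also occur in its paralog Ifit3b, so how reads were divided between both is uncertain. Ifit3b is listed in the table under its older symbol I830012O16Rik, with a log2 fold change of 0.57 (adjusted p by edgeR = 0.403). For Ifit1 the share was 7.13% and for Ifit2 it was 0%.

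Isg15, Oasl2 and Rsad2 encode further antiviral effectors. Isg15, a ubiquitin-like modifier that is joined to target proteins, had the fewest reads, 31 to 124 raw counts per library. It stood at 32.8, 105, 51.9 and 77.0 normalised counts in the mdx libraries and at 121, 53.9 and 75.9 in the mdx/Runx1f/f libraries. Its highest and lowest libraries labelled mdx differed 3.22-fold, more than those of any other member. The fitted log2 fold change was 0.33 (SE 0.42, adjusted p by edgeR = 0.634), and it was -0.05 without mdx/Runx1f/f replicate 1. Oasl2, an oligoadenylate synthetase-like protein gene, stood at 149, 468, 230 and 316 against 579, 397 and 421. Its log2 fold change, 0.69 (SE 0.35, adjusted p by edgeR = 0.225), had the largest size of the 9, with a 95% interval from -0.11 to 1.49.

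Rsad2, which encodes the radical SAM enzyme viperin and blocks viral budding, was the member with a negative log2 fold change. It stood at 272, 519, 423 and 343 in the mdx libraries and at 367, 183 and 428 in the mdx/Runx1f/f libraries. The lowest value of all was that of mdx/Runx1f/f replicate 2. Its log2 fold change was -0.25 (SE 0.32, adjusted p by edgeR = 0.635), and it was 0.04 without that library. The direction of Rsad2 therefore changed when 1 animal was left out.

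The intervals show what these 7 libraries could resolve. The upper 95% bound of the fitted fold was 1.79 for Irf9, 1.95 for Stat2 and 1.4 for Rsad2. For the other 6 members it lay between 2.10 for Ifit2 and 2.89 for Ifit3. The lower 95% bound was 0.51 for Rsad2, 0.58 for Ifit1 and 0.64 for Isg15. For the remaining members it lay between 0.80 for Ifit3 and 1.09 for Irf9. The SD of log2 CPM (counts scaled to library size) within groups had a median of 0.57 over the members and of 0.22 over all tested genes. Of all tested genes, 11% had an SD at least as large as that median.

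**Figure D2:**
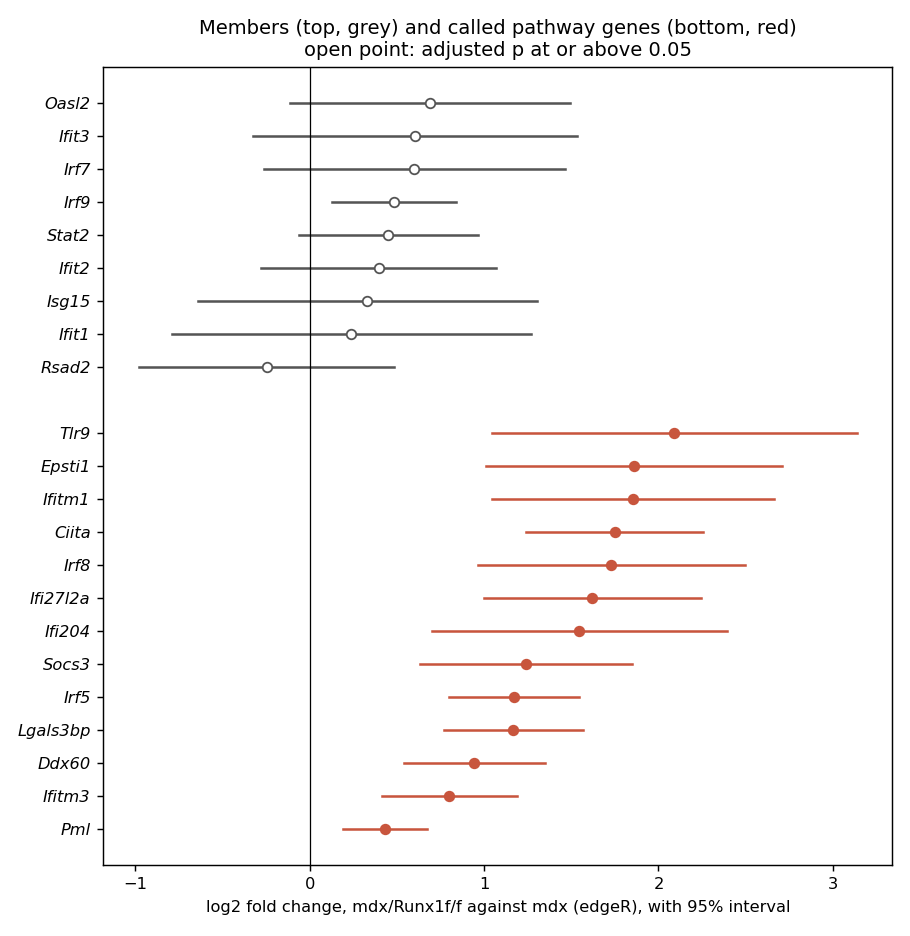
Log2 fold change of mdx/Runx1f/f against mdx (x axis) with its 95% interval for the 9 members and for the 13 other pathway genes that were called. Each member except Irf9 has an interval that includes 0, and Irf9 misses the adjusted threshold.

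The spread was shared between members. In the group labelled mdx, replicate 2 held the highest value of all 9 members, and the lowest was in replicate 1 for 5 and in replicate 3 for 4. In the group labelled mdx/Runx1f/f, replicate 1 was highest for 7, all but Irf9 and Rsad2, and replicate 2 was lowest for 7. Replicate 2 of mdx was above both mdx/Runx1f/f replicates 2 and 3 for 7 members, all but Stat2 and Irf9. Summed over the 9 members, the normalised counts were 1669, 3430, 1949 and 2517 in the mdx libraries and 3882, 2501 and 3070 in the mdx/Runx1f/f libraries. The sum in mdx replicate 2 thus exceeded that in 2 of the 3 libraries labelled mdx/Runx1f/f.

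A pair of libraries weighed most on the comparison, mdx replicate 2 and mdx/Runx1f/f replicate 1. Without mdx replicate 2 the members' median log2 fold change was 0.64, and 6 members had an unadjusted p below 0.05, though 0 passed after adjustment by edgeR. The share of all genes below 0.05 was not counted in that fit, so the 6 cannot be set against it. With all 7 libraries that share was 29.5% by edgeR. Without mdx/Runx1f/f replicate 1, the library low in Myh7, the median was 0.16. The part of the slow-fibre markers in these values was not tested.

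**Figure D3:**
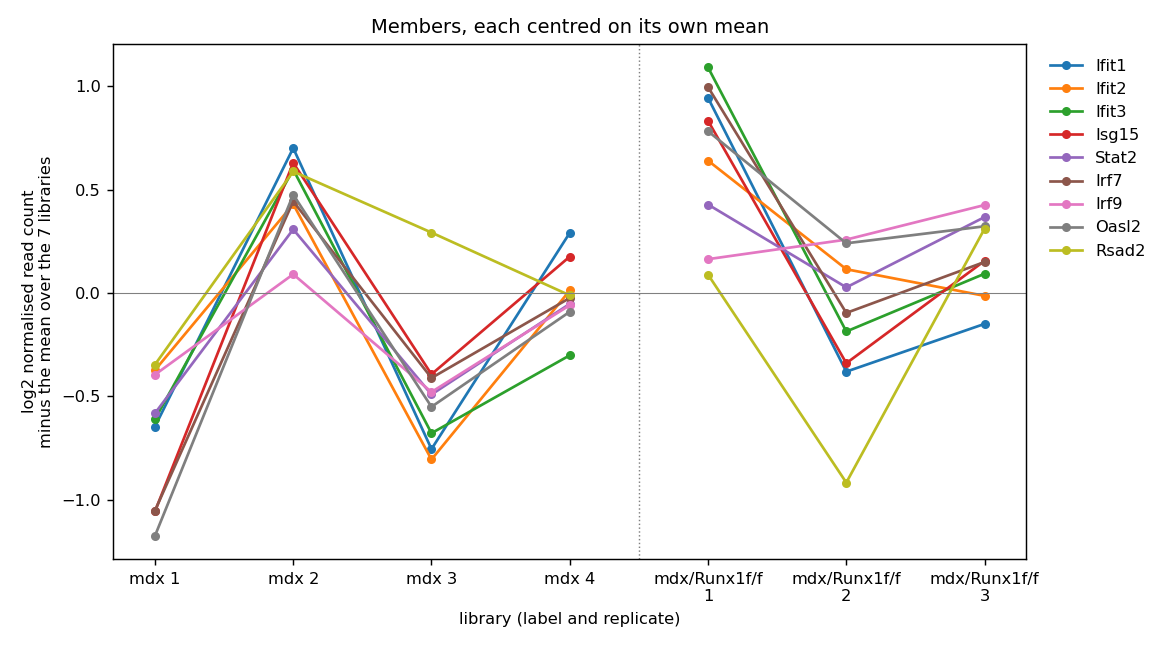
Log2 normalised read count of each member, minus its mean over the 7 libraries (y axis), by library (x axis). Lines join the libraries of a group only to guide the eye. Most members are high in mdx replicate 2 and mdx/Runx1f/f replicate 1 and low in mdx replicates 1 and 3.

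Pearson correlations of log2 levels over the 7 libraries describe this shared pattern. The 7 points include both groups, and the values carry no test. Over the 36 pairs of members the median was 0.83, from -0.03 to 0.97, and the highest was that of Isg15 with Irf7. The 28 pairs without Rsad2 had a median of 0.88 and the 8 pairs with Rsad2 one of 0.33. With each group centred on its own mean, the medians were 0.87 and 0.60, so the shared pattern was present within groups too.

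Outside the lists, the genes whose levels followed the members' mean most closely were Cdk8, mKIAA1757, Samd9l, Sertad4 and Maml3, with Pearson r from 0.98 down to 0.94 over 7 libraries. For comparison, 5% of tested genes had an r above 0.65. Samd9l encodes an antiviral restriction factor, and Cdk8 a kinase of the Mediator complex. Among listed genes, Usp18, which removes Isg15 from proteins and dampens receptor signalling, had an r of 0.94, and Xaf1 had 0.96. Usp18 and Xaf1 are named after their values were seen.

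Levels can be compared between genes only per length, here as normalised counts per kilobase of exon in GENCODE vM21. In the libraries labelled mdx the order ran from Rsad2 at 89.7, through Isg15 at 88.3, Irf7 at 78.9, Ifit3 at 76.6, Stat2 at 74.6, Irf9 at 72.1 and Ifit2 at 63.2, to Ifit1 at 50.8 and Oasl2 at 45.6. In the libraries labelled mdx/Runx1f/f Irf7 was first at 119 and Ifit1 last at 59.7, with Rsad2 seventh at 75.2. In neither group did any of the 8 gaps between neighbours exceed the larger of their SDs. Neighbours in the order are therefore not separated by this measure. It sets gaps against the spread between animals and does not compare genes within each library. More distant ranks were not compared.

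The animals' numbers fall into 2 series, 358 to 363 and 373 to 375, each holding both labels. The second holds only 1 library labelled mdx/Runx1f/f, so its differences rest on 1 animal of that label. For the same reason, a lack of calls between the series does not show that they agree. What the series mark is not stated. The log2 difference of Oasl2 between labels was 0.86 in the first series and 0.65 in the second, and that of Irf9 was 0.37 and 0.70. That of Rsad2 was -0.52 and 0.18. By edgeR's test of the difference between series, 0 of the 14033 genes were called, with 826 at an unadjusted p below 0.05, none of them a member.

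The other genes of the pathway were taken from lists by role. Of 101 listed genes, 78 were tested, 13 were higher in mdx/Runx1f/f libraries and 0 were lower. That is 16.7%, against the 5.1% of all tested genes called higher. The lists were written with earlier results of these data known, so this share only describes them. Log2 fold changes were positive for 70 of the 78, with a median of 0.47.

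The ligands were almost undetected. Of 18 genes for type I interferons, 16 had no count in any library, and all 18 together had 2 raw counts over the 7 libraries. None could be tested. Counts of 0 at this depth do not show that the genes are silent in single cells.

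The receptor and its kinases held no called gene among 4 tested, with 3 at an unadjusted p below 0.05 (29.5% of all tested genes). Ifnar2 had a log2 fold change of 0.54 (adjusted p by edgeR = 0.0632) and Jak1 of 0.30 (adjusted p = 0.0891). Of 14 sensors and adaptors 1 was called, Tlr9, an endosomal receptor for DNA. It rose from 20.3 ± 11.2 (SD, n = 4) to 86.4 ± 23.2 (SD, n = 3) in normalised counts. Its log2 fold change was 2.09 (adjusted p by edgeR = 0.0363). Tmem173, which encodes the adaptor STING, had 0.86 (adjusted p = 0.0530).

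Of 5 other interferon regulatory factors 2 were called, both known from myeloid cells. Irf5 rose from 248 ± 51.7 (SD, n = 4) to 555 ± 41.8 (SD, n = 3), with 1.17 as the log2 fold change (adjusted p by edgeR = 0.0135). Irf8 rose from 131 ± 64.2 to 433 ± 97.4, a log2 fold change of 1.73 (adjusted p by edgeR = 0.0281). Of 5 tested negative regulators 1 was called, Socs3, an inhibitor of cytokine receptor signalling, at 1.24 (adjusted p = 0.0348). Socs3 missed the threshold by limma-voom (adjusted p = 0.0514) and kept its call in 1 of 7 fits made with a library omitted. Its log2 fold change was 1.62 in animals 358 to 363 alone and 0.36 in animals 373 to 375 alone. Of the 4 genes for conjugating Isg15 to proteins 0 were called, with 2 at an unadjusted p below 0.05 (29.5% of all tested genes). Ube2l6, the conjugating enzyme, had 0.65 (adjusted p = 0.0860).

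Of 38 other antiviral effectors 8 were called, all higher in mdx/Runx1f/f libraries. They were Epsti1, Ifitm1, Ifi27l2a, Ifi204, Lgals3bp, Ddx60, Ifitm3 and Pml. Lgals3bp, a secreted galectin-binding protein, rose from 592 ± 125 (SD, n = 4) to 1322 ± 157 (SD, n = 3). Ifi27l2a rose from 183 ± 59.2 to 560 ± 148, a log2 fold change of 1.62 (adjusted p by edgeR = 0.0192). Ifitm3, a membrane protein that blocks viral entry, rose from 1006 ± 224 to 1743 ± 105. Of 6 genes of the type II pathway 1 was called, Ciita, the activator of MHC class II genes, which rose from 57.5 ± 15.6 to 192 ± 23.5 (adjusted p by edgeR = 0.0105).

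How many of these 13 calls held depended on the libraries. When 1 library was left out, 4 to 10 of the 13 were still called, the fewest without mdx replicate 4. Irf5, Lgals3bp, Ifi27l2a and Ciita were called in all 7 such fits, and Pml in 0. Tlr9 and Irf8 kept their calls in 3, Ifitm1, Epsti1, Ddx60 and Ifi204 in 2, and Socs3 and Ifitm3 in 1. The log2 fold change of Ifi27l2a was 1.07 in animals 358 to 363 alone and 2.42 in animals 373 to 375 alone.

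**Figure D4:**
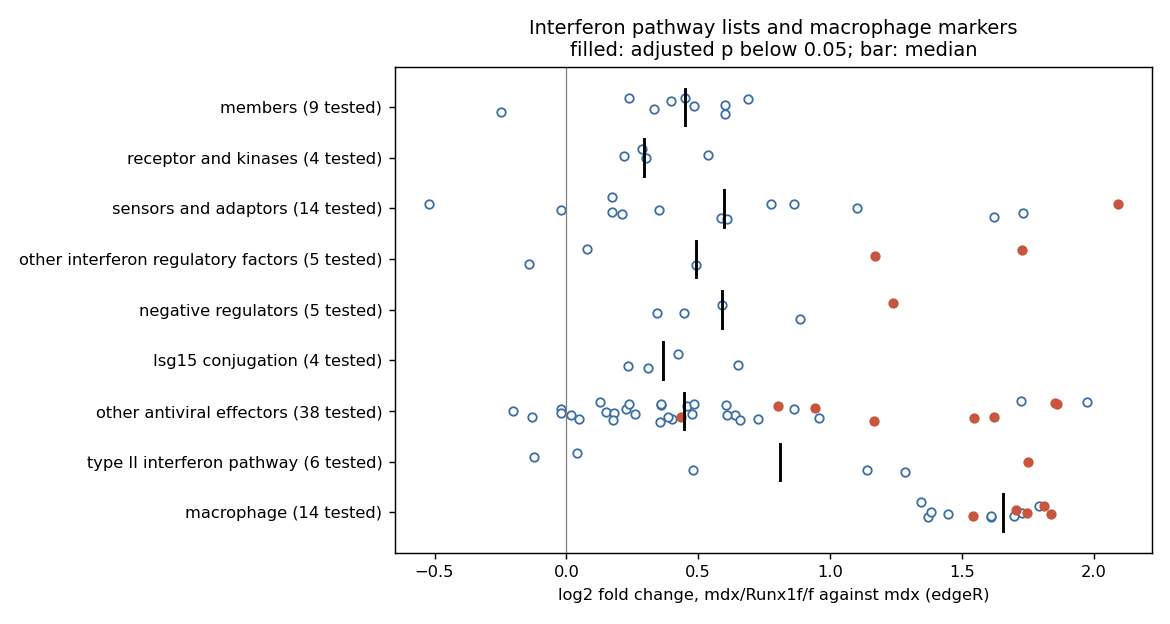
Log2 fold change of mdx/Runx1f/f against mdx (x axis) for each tested gene of the interferon lists and for macrophage markers, with 1 point per gene and the list's median as a bar. Filled points passed the test, of which the members have 0 and the other antiviral effectors 8.

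Markers of some other cells differed between the groups. All 14 macrophage markers had positive log2 fold changes, 5 were called and the median was 1.65. Their summed level was 14807, 8886, 3735 and 4601 normalised counts in the mdx libraries and 20254, 39691 and 15109 in the others, with no marker at 0 in all libraries. All 5 markers of fibro-adipogenic progenitors were called, with sums of 16600 to 25325 against 52321 to 61404. Muscle fibre markers summed to 1336520 to 1757190 against 932029 to 1186940, with 0 of 8 called and 3 at an unadjusted p below 0.05. By edgeR 29.5% of all tested genes were below that p. In whole muscle, fewer cells of a type and less RNA per cell cannot be told apart.

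Set beside the members' sums, the macrophage sums ran alike in some libraries and not in others. Replicate 3 of mdx had the lowest macrophage sum and the second-lowest member sum of all 7, and mdx/Runx1f/f replicate 1 the second-highest macrophage sum and the highest member sum. Replicate 1 of mdx had the highest macrophage sum of its group and the lowest member sum. Replicate 2 of mdx/Runx1f/f had the highest macrophage sum of all 7 libraries and the lowest member sum of its group. Markers of plasmacytoid dendritic cells, a main source of type I interferon, summed to 15.8 to 28.5 against 35.3 to 56.1. Siglech was the only one of their 5 tested, and it was called. Ccr9 went the other way in its mean, at 10.3 normalised counts in mdx and 5.82 in mdx/Runx1f/f. Ly6d, Bcl11a and Spib had higher means in mdx/Runx1f/f, and none of these genes had enough counts to be tested. Of 8 T and NK cell markers 2 were tested and both were called, and no neutrophil or endothelial marker was. The part of these cells in the members' values and in the 13 called pathway genes was not tested.

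**Figure D5:**
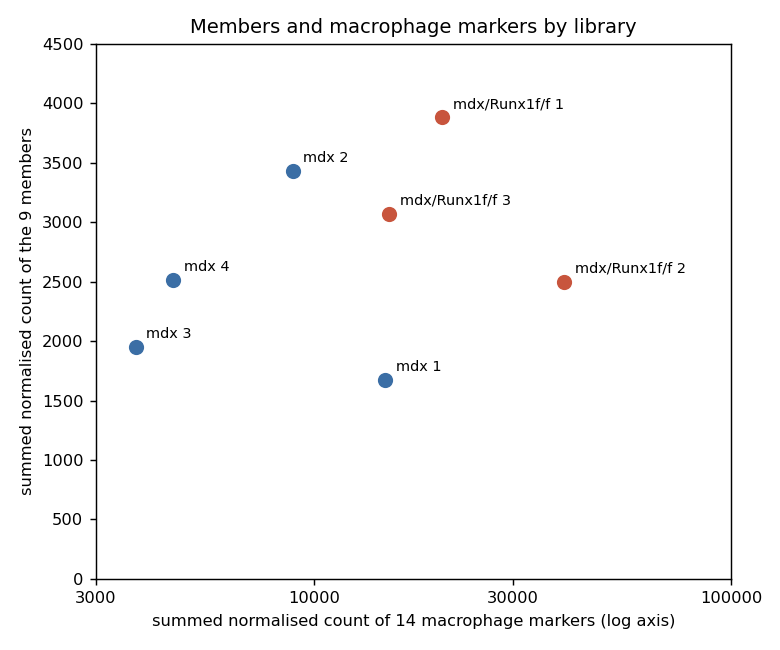
Summed normalised read count of the 9 members (y axis, from 0) against that of 14 macrophage markers (x axis, log scale), with 1 point per library, blue for mdx and red for mdx/Runx1f/f. The library with the most macrophage signal, mdx/Runx1f/f 2 at 39691, has a member sum of 2501, below the 3430 of mdx 2.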

How the data were processed

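RNA was sequenced from 7 whole soleus muscles, 1 library each, grouped by sample title. The deposited table holds the authors' raw counts per gene, their normalised signal (each count divided by 1 factor per library), log2 fold changes and p-values. Per the submitters' processing notes the tools were TopHat2 2.0.10, HTSeq and DESeq2 1.6.3 on mm9. None of the 21 pairs of libraries agreed within counting noise. Here the counts were tested with edgeR 4.0.16 (TMM scaling, low-count filter, quasi-likelihood test on group, Benjamini-Hochberg adjustment over 14033 of 29869 genes, which held 99.9% of counts) in R 4.3.3; scripts were tested on simulated data. Intervals are 95% confidence intervals of the fitted difference between groups, with an error estimated from these 7 animals. They do not give the range of single animals. Alternatives were DESeq2 1.42.0, limma-voom (limma 3.58.1), other filters and scaling, a replicate block, the animal number series, and leaving out each library. The members and lists were chosen with earlier results of these data known. Some listed items are not reported here and were left out of the list counts, but not of the fit. Named beside the members are Runx1, every called gene of the lists, the 2 tested genes of each list with the smallest p (where they matter to the text), and the 5 genes most alike the members among those averaging 20 or more normalised counts. Promoter sequences are from RefSeq and exon lengths from GENCODE vM21, neither on the build of the counts. Whether counting used strand is not given in the sources used here.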

Additional observations from a re-analysis of the deposited data

Results flagged for a closer look

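Among the libraries labelled mdx, Epsti1 had 1 value far from the others: 72.1 normalised counts in replicate 2, against 29.6, 24.3 and 28.6. The gap to the nearest value was 0.889 of the whole range, above Dixon's 95% critical value for 4 samples. Of 31 genes checked in this way 1 stood out, and chance flags about 1 in 20 groups. Replicate 2 is also the highest of its group for all 9 members.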

How the results depend on the processing

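The members called stayed at 0 in all settings run, with 0 to 6 at an unadjusted p below 0.05. For most of these settings the share of all genes at that p was not counted. Of 144 member values under alternatives, 139 kept their direction and 5 did not. Genes called higher, 715 by edgeR, were 1487 by DESeq2, 1246 with the series of animal numbers in the model, 0 in animals 358 to 363 alone, 1361 in animals 373 to 375 alone and 173 to 641 with 1 library left out. Genes called lower, 260 by edgeR, were 884, 582, 0, 440 and 17 to 209 in the same order. Other pathway genes called higher, 13 by edgeR, were 26, 21, 0, 20 and 4 to 10. With a replicate block these 3 counts were 211, 74 and 4. Whether the titles' numbers pair the animals cannot be told from the correlations here, which carry no test. Same-numbered libraries deviated together with correlations of -0.01, 0.24 and 0.28, and differently numbered ones with -0.46 to 0.51. In animals 358 to 363 alone edgeR had 2669 genes at an unadjusted p below 0.05, and DESeq2 called 688 and limma-voom 0. Animals 373 to 375 leave 1 library labelled mdx/Runx1f/f, assumed to vary like the others. There Ifit1 had a log2 fold change of -0.016 and Rsad2 of 0.17. With 1 library left out, the members' median ran from 0.16 to 0.64, Ifit1 from -0.29 to 0.55, Isg15 from -0.049 to 0.64, Rsad2 from -0.50 to 0.043 and I830012O16Rik from -0.12 to 0.82. Isg15 had the fewest reads of the members, and the part of counting error in its range was not tested. The cause of these shifts was not tested.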
